A study of Mus musculus with 8 samples.

Results

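The endoplasmic reticulum (ER) chaperone and unfolded protein response genes were followed through mouse colonic tumors measured on expression arrays. They are 34 named genes of 19938 genes tested, picked by gene symbol and not by a cut on their values. Earlier results of these data were known when these genes and the other gene lists used below were chosen. A gene was read from a row of the deposited table whose probe annotation gives exactly 1 symbol, and of several rows for a gene the brightest on average was used. All 34 genes had such a row, and 31 of them had only 1. All 34 lay among the brighter 60% of genes by mean level.

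The samples are 8 colonic tumors in 3 groups, with 1 array per tumor. The K-rasG12D AOM group (3 arrays) holds tumors of the distal colon labelled K-rasG12Dint and induced with AOM, which is azoxymethane, a colon carcinogen. The LSL AOM group (2 arrays) holds AOM tumors of the distal colon labelled LSL-K-rasG12D/+, where the lox-stop-lox (LSL) cassette keeps an allele silent until a recombinase cuts it out. The titles of these 2 samples mark them as wild type. The serrated group (3 arrays) holds serrated tumors of the proximal colon labelled K-rasG12Dint/Ink4a/Arf-/-, which lack the Ink4a/Arf tumor suppressor locus. All 3 genotype labels name K-rasG12D, and what the suffix int stands for is not spelled out in them. The sources used here do not give the promoter that drives recombination, the strain, age and sex of the mice, or the dose and timing of AOM. Tumor type, AOM, colon segment and the Ink4a/Arf genotype change together between the serrated group and the others and cannot be told apart. No normal colon was measured.

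The ER folds and modifies proteins that are secreted or sent to membranes. Chaperones such as BiP, the product of Hspa5, hold chains until they fold, lectins such as calreticulin and calnexin keep glycoproteins in a folding cycle, and disulfide isomerases join cysteines. When unfolded proteins build up, 3 sensors respond: IRE1, made by Ern1 and Ern2, splices the Xbp1 transcript, Atf6 is cut to release a transcription factor, and PERK, made by Eif2ak3, raises translation of Atf4. Xbp1 and Atf6 raise chaperones and the degradation of misfolded proteins, while Atf4 raises amino acid synthesis genes and, through Ddit3, genes linked to cell death. Goblet cells, which fill their ER with mucin, are known for a large secretory apparatus. Array signals report the transcript and not Xbp1 splicing, Atf6 cleavage or Atf4 translation.

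Many of these genes are known to share promoter letters that Atf6 and Xbp1 bind together with NF-Y. The ER stress response element (ERSE) was searched as CCAAT and CCACG with 9 bases of any kind between them, its second form (ERSE-II) as ATTGG and CCACG with 1 base between them, the unfolded protein response element (UPRE) as TGACGTGG and the amino acid response element bound by Atf4 and C/EBP factors (CARE) as TGATGNAA, on both strands. The search used RefSeq windows of 300 bases, from 250 before to 50 after each annotated start (build GRCm38.p6), which matched 28 of the 34 genes by symbol. ERSE was found in 9 of the 28 genes (32.1%), against 0.119% of all 32851 windows. ERSE-II was found in Dnajb11 and Herpud1 (7.14%, against 0.0365% of all windows), UPRE in Sec24d (3.57%, against 0.676%), and CARE in Asns, Chac1, Herpud1 and Trib3 (14.3%, against 3.97%). No match of one motif overlapped a match of another. A match is a description of the letters and says nothing of binding in these tumors.

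The 10 ERSE matches are printed because they mark the chaperones, lectins and degradation genes among the 34 genes whose windows hold this element, of which Hspa5 is the best known. None of them is among the genes that passed. Each is given in the direction of the motif, with the fixed letters in capitals and the spacer and 6 flanking bases on each side in lower case. The coordinates cover the motif without its flanks.
Hspa5, chr2:34772025-34772043, plus strand: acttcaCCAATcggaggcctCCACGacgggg
Hsp90b1, chr10:86705638-86705656, minus strand: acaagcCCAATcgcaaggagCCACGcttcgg
Hsp90b1, chr10:86705533-86705551, plus strand: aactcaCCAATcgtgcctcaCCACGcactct
Dnajc3, chr14:118937827-118937845, plus strand: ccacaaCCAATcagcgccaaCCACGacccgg
Creld2, chr15:88819520-88819538, minus strand: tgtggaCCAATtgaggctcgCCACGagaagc
Calr, chr8:84847075-84847093, plus strand: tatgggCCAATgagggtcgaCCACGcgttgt
Canx, chr11:50325800-50325818, minus strand: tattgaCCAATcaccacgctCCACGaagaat
Pdia6, chr12:17266491-17266509, plus strand: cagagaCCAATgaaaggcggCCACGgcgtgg
Syvn1, chr19:6046532-6046550, plus strand: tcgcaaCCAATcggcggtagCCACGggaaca
Derl3, chr10:75893242-75893260, minus strand: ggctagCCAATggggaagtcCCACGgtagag

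The matches began between 44 bases (Syvn1) and 212 bases (Hsp90b1) before the annotated start, as the map of response elements shows. The CARE matches are printed because they mark genes of the Atf4 arm.
Asns, chr6:7693225-7693232, minus strand: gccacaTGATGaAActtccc
Chac1, chr2:119351049-119351056, minus strand: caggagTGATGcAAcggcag
Trib3, chr2:152344039-152344046, plus strand: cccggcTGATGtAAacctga
Herpud1, chr8:94386317-94386324, minus strand: gcgggcTGATGcAAcccgcc
The whole window of Hspa5, the best known target of this response, has its element in capitals and lies at chr2:34771840-34772139 on the plus strand.
Hspa5: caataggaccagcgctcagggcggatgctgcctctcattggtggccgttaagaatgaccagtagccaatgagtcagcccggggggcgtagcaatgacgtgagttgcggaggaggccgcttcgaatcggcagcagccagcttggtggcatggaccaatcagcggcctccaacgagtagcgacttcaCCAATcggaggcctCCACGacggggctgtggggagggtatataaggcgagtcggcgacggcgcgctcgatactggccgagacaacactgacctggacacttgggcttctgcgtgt

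**Figure D1:**
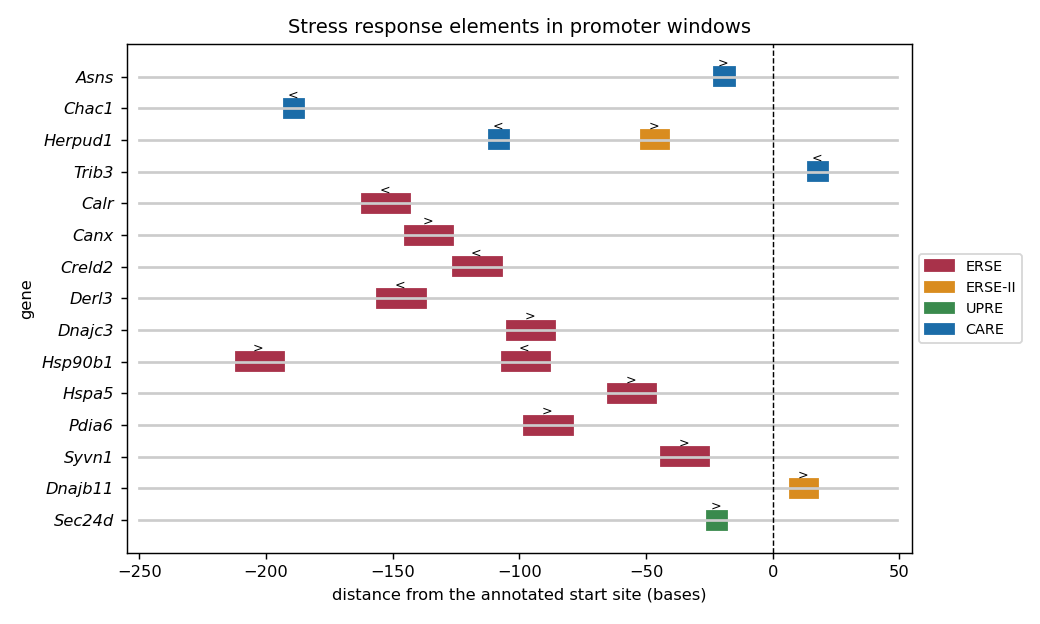
Positions of ERSE, ERSE-II, UPRE and CARE matches in the promoter windows of the genes that hold at least 1, by distance from the annotated start site in bases (dashed line at 0). Grey lines are the windows, boxes the matches, and the signs > and < above a box mean that the motif runs with or against the gene. The ERSE matches start 44 to 212 bases before the start site.

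The values are RMA signals (robust multi-array average) on the log2 scale, so a difference of 1 is a 2-fold difference in signal. Levels of different genes are not compared, because each probe set has its own brightness. Differences were tested with limma in 1 fit of the 3 group means. Benjamini-Hochberg adjustment ran over the whole table of 19938 genes, and a gene passed at an adjusted p under 0.05. A difference is followed by its standard error (SE) and a mean level by its standard deviation (SD). "Serrated minus AOM" is the serrated mean less the average of the K-rasG12D AOM and LSL AOM means. Rose and fell mean higher or lower in serrated tumors, and are used only for genes that passed. Array medians over all genes ran from 4.17 to 4.31. The SD over genes was 1.77 on serrated replicate 1 and 2.00 to 2.13 on the other arrays, so this array stands apart. The labels give no batch or scan date, and they do not say whether the tumors of a group came from separate mice, so the p-values measure only spread among these samples, which may be technical.

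In serrated tumors the chaperone cofactor Hyou1 and the disulfide isomerase Pdia4 fell, the IRE1 gene Ern2 rose, and 31 of the 34 genes did not pass. The 3 calls are 8.82% of the genes, against 9.38% of all genes tested, so the share called was near the background. At an unadjusted p under 0.05 there were 8 of 34, against 24.7% of all genes. The direction was more uneven: 28 of 34 differences (82.4%) were below 0, against 45.2% of all genes. The median difference was -0.26, against 0.04 over all genes and -0.14 over the brighter 60% of genes. All 34 genes are among those brighter genes, most of which thus also lay below 0. The share of brighter genes below 0 was not counted, so shares over all genes overstate how far the 34 genes stand apart. Without serrated replicate 1, 22 of 34 (64.7%) lay below 0, against 49.5% of all genes, and the median was -0.14. In the heat map by array the lowest values stand on serrated replicate 1.

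**Figure D2:**
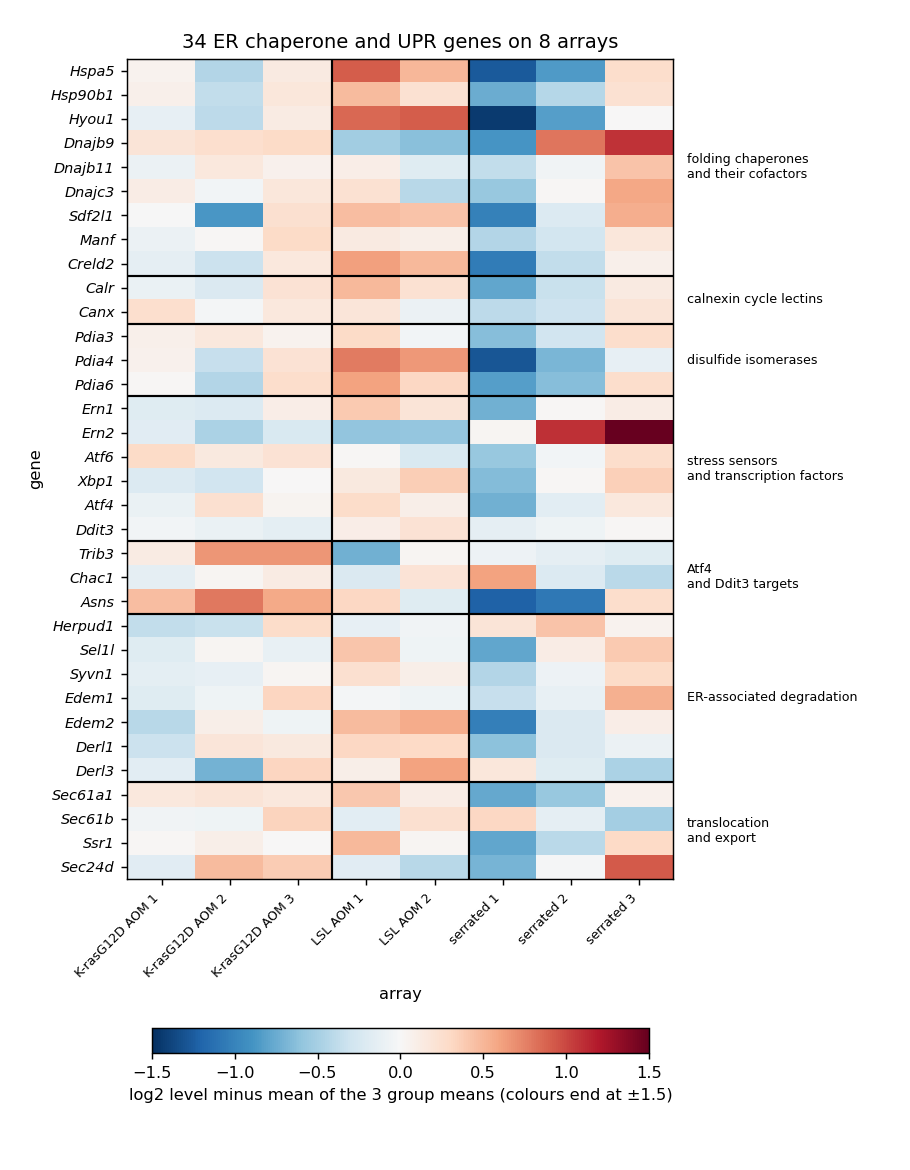
Log2 level of each of the 34 genes on each array, minus the mean of the 3 group means of that gene (red above, blue below, colours ending at ±1.5). Rows are grouped by role and columns by tumor group. Serrated 1 is blue in most rows and lowest of the 8 arrays in 27 of 34 genes, while serrated 3 is not.

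Hspa5, the main ER chaperone, measured 9.34, 8.85 and 9.42 across K-rasG12D AOM replicates 1 to 3, 10.20 and 9.78 across LSL AOM replicates 1 and 2, and 8.03, 8.44 and 9.55 across serrated replicates 1 to 3. This order of replicates is kept throughout. Serrated replicates 1 and 2 were below every AOM tumor, while serrated replicate 3 lay above all K-rasG12D AOM tumors. The difference, serrated minus AOM, was -0.92 ± 0.33 (adjusted p = 0.120 in limma), which did not pass. It was -1.36 without serrated replicate 3 (adjusted p = 0.00618 in limma) and -0.60 without serrated replicate 1 (adjusted p = 0.301). Hspa5 passed in 2 of 15 alternatives, without serrated replicate 3 and with array weights, an estimate that did not converge. The call on Hspa5 therefore depends on 1 serrated tumor.

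Hyou1, an ER chaperone of the Hsp70 family that acts as a nucleotide exchange factor for BiP (chr9:44379490-44392369, GRCm38.p6), stood at 7.61, 7.35 and 7.87 in K-rasG12D AOM, 8.60 and 8.64 in LSL AOM, and 6.30, 6.91 and 7.74 in serrated tumors. The LSL tumors lay above all others, and serrated replicate 3 lay within the range of the K-rasG12D AOM tumors. Hyou1 fell by 1.13 ± 0.30 on the log2 scale, a 2.19-fold lower signal (adjusted p = 0.0469 in limma). The serrated mean was 6.98 ± 0.72 (SD, n = 3), against 7.61 ± 0.26 (SD, n = 3) and 8.62 ± 0.03 (SD, n = 2) in the K-rasG12D and LSL AOM groups. Hyou1 did not pass when any 1 array other than serrated replicate 3 was left out, and its adjusted p over the 8 arrays left out in turn ran from 0.00371 to 0.161.

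The other genes of protein folding mostly lay below 0 without passing. Of the 9 folding chaperones and cofactors 7 had a negative difference and 1 passed, with a median of -0.34. Hsp90b1, the ER form of Hsp90, differed by -0.47 ± 0.24 (adjusted p = 0.265) and Creld2, a secreted ER stress protein, by -0.67 ± 0.25 (0.137). Both passed without serrated replicate 3, at -0.74 (adjusted p = 0.0361) and -0.93 (0.0244), and were at -0.25 (0.599) and -0.37 (0.299) without serrated replicate 1. Sdf2l1, which works with BiP, and Manf, a BiP cofactor, differed by -0.34 and -0.28. The BiP co-chaperones Dnajb11 and Dnajc3 differed by -0.00 ± 0.20 and 0.02 ± 0.27.

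Dnajb9, a co-chaperone that sends BiP to IRE1, differed from the other chaperones. It stood at 6.27, 6.33 and 6.36 in K-rasG12D AOM, 5.56 and 5.45 in LSL AOM, and 5.20, 6.88 and 7.16 in serrated tumors. Serrated replicate 1 was the lowest of the 8 tumors and the other serrated tumors were the highest. Over all serrated tumors the difference was 0.50 ± 0.39 (adjusted p = 0.462). Without serrated replicate 1 it was 1.11 (adjusted p = 0.00265 in limma). Of the 15 alternatives only that 1 and array weights, which did not converge, had Dnajb9 pass. The level in serrated tumors, 6.41 ± 1.06 (SD, n = 3), thus rests on which tumor is counted.

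The calnexin cycle lectins, which bind folding glycoproteins, did not pass. Calr ran from 9.37 to 10.28 in serrated, 9.94 to 10.37 in K-rasG12D AOM and 10.38 to 10.63 in LSL AOM tumors, with a difference of -0.49 ± 0.22 (adjusted p = 0.213). Calr lay below both LSL tumors on every serrated array but overlapped the K-rasG12D AOM tumors. Canx differed by -0.25 ± 0.18 (adjusted p = 0.420).

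Pdia4, a disulfide isomerase with several thioredoxin domains (chr6:47796141-47813512, GRCm38.p6), stood at 8.46, 8.04 and 8.61 in K-rasG12D AOM, 9.17 and 9.04 in LSL AOM, and 7.10, 7.71 and 8.27 in serrated tumors. The order of the groups was that of Hyou1, with LSL tumors highest and serrated replicate 3 above 1 of the K-rasG12D AOM tumors. Pdia4 fell by 1.04 ± 0.26, a 2.06-fold lower signal (adjusted p = 0.0404 in limma). Like Hyou1, it did not pass when any 1 array other than serrated replicate 3 was left out (adjusted p from 0.00674 to 0.136 over the 8 arrays). A second row of the table annotated to Pdia4 had a mean of 2.74 over all arrays and differed by 0.46, and with the mean of both rows the gene did not pass (-0.29, adjusted p = 0.315). Pdia6 and Pdia3, the other isomerases, differed by -0.61 ± 0.27 (adjusted p = 0.211) and -0.33 ± 0.21 (0.368).

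**Figure D3:**
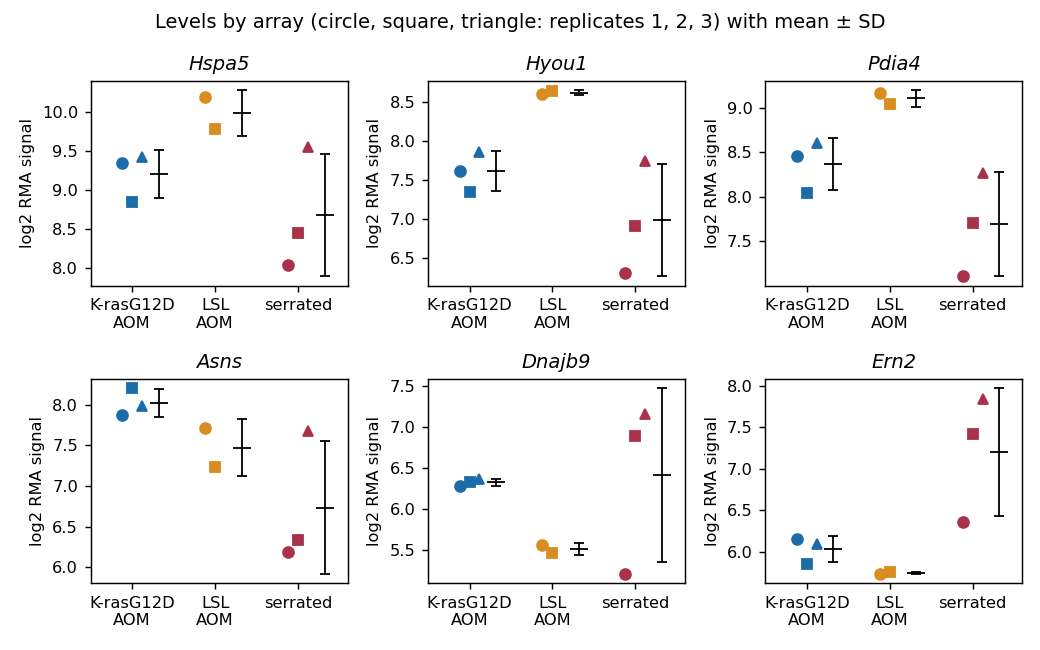
Log2 RMA signal of 6 genes on each array by tumor group, with circles, squares and triangles for replicates 1, 2 and 3, and bars for the group mean ± SD (n = 3, 2 and 3). Ern2 is higher in every serrated tumor (6.35 to 7.85) than in any AOM tumor (5.73 to 6.15), while serrated tumors overlap AOM tumors in the other 5 genes.

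Among the sensors Ern2 stood apart. Ern2 codes for the IRE1 form that is known from mucus-producing epithelium of gut and airway (chr7:122169893-122186239, GRCm38.p6). Its level was 6.15, 5.85 and 6.09 in K-rasG12D AOM, 5.73 and 5.75 in LSL AOM, and 6.35, 7.42 and 7.85 in serrated tumors. All serrated tumors lay above all AOM tumors, which held for 1 of the 34 genes (2.94%). It held for 7.24% of all genes tested and 7.64% of the brighter 60%. Ern2 rose by 1.32 ± 0.30, a 2.50-fold higher signal (adjusted p = 0.0296 in limma).

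The rise of Ern2 was larger without serrated replicate 1, at 1.75, and 1.0 without serrated replicate 3, and it passed in both cases. When any other array was left out it did not pass (adjusted p from 0.0571 to 0.128). Among 12 goblet cell markers, 10 were measured, 5 rose and 0 fell. Their mean level was 8.31 to 8.36 in serrated tumors, 5.80 to 7.50 in K-rasG12D AOM and 7.24 to 7.80 in LSL AOM tumors. The list includes Creb3l1, which rose, and Agr2, which did not pass, and both are also given below as pathway genes. Of 6 markers of stomach surface and neck mucous cells 5 rose, and their mean level was 6.84, 10.7 and 10.6 on serrated replicates 1, 2 and 3, and 3.17 to 3.71 in AOM tumors. On serrated replicate 1 both Ern2 and the stomach markers were lower than on the other serrated arrays, whereas the goblet markers were not. The part of these cells in the rise of Ern2 was not tested, and in tumor tissue fewer cells of a type and less RNA per cell cannot be told apart.

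Ern1, the IRE1 form of most tissues, stood at 5.45, 5.44 and 5.74 in K-rasG12D AOM, 6.03 and 5.83 in LSL AOM, and 4.91, 5.65 and 5.74 in serrated tumors. Its difference was -0.30 ± 0.21 (adjusted p = 0.419), opposite in sign to that of Ern2. Atf6 stood at 6.51, 6.36 and 6.43 in K-rasG12D AOM, 6.24 and 6.0 in LSL AOM, and 5.66, 6.18 and 6.49 in serrated tumors, and its groups overlapped. Atf6 differed by -0.17 ± 0.20 (adjusted p = 0.625). Neither sensor passed under any of the 15 alternatives.

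The transcription factors of the response did not pass. Xbp1 stood at 7.85, 7.76 and 8.05 in K-rasG12D AOM, 8.20 and 8.41 in LSL AOM, and 7.39, 8.06 and 8.40 in serrated tumors, with a difference of -0.14 ± 0.23 (adjusted p = 0.729). Serrated replicate 1 lay below all AOM tumors and serrated replicate 3 above all but 1 of them. Atf4 stood at 6.02, 6.36 and 6.16 in K-rasG12D AOM, 6.39 and 6.21 in LSL AOM, and 5.40, 5.96 and 6.28 in serrated tumors, with a difference of -0.36 ± 0.21 (adjusted p = 0.335). Ddit3, which codes for the stress factor CHOP, was nearly flat at 4.11, 4.05 and 4.01, 4.24 and 4.36, and 4.01, 4.09 and 4.17 in the same order of groups. Its difference was -0.09 ± 0.13 (adjusted p = 0.695).

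Of the 3 targets of Atf4 and Ddit3, 0 passed (limma, 1 at an unadjusted p under 0.05, Asns), and in Asns and Trib3 the K-rasG12D AOM tumors were the highest. Asns, which makes asparagine, stood at 7.87, 8.20 and 7.98 in K-rasG12D AOM, 7.72 and 7.23 in LSL AOM, and 6.19, 6.34 and 7.68 in serrated tumors. Serrated replicates 1 and 2 lay far below all other tumors, and replicate 3 lay among the LSL AOM tumors. The difference was -1.01 ± 0.33 (adjusted p = 0.0923), without serrated replicate 3 it was -1.48 (0.00253), and without serrated replicate 1 it was -0.74 (0.231). Asns passed in 2 of 15 alternatives, without serrated replicate 3 and with the array weights that did not converge.

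Trib3, a pseudokinase that dampens the response, stood at 4.02, 4.56 and 4.55 in K-rasG12D AOM, 3.17 and 3.93 in LSL AOM, and 3.82, 3.76 and 3.71 in serrated tumors. All K-rasG12D AOM tumors lay above all other tumors. Serrated minus K-rasG12D AOM was -0.61 ± 0.24 (adjusted p = 0.171) and K-rasG12D minus LSL AOM 0.83 ± 0.26 (0.412), so neither passed. Chac1, which degrades glutathione, differed by -0.00 ± 0.24, and serrated replicate 1, at 5.05, was its highest tumor.

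Genes of ER-associated degradation, which exports misfolded proteins to the proteasome, had 0 calls among 7 in limma (1 at an unadjusted p under 0.05, Derl1), with a median of -0.14. Derl1 and Edem2, a membrane channel subunit and a lectin-like mannosidase that selects clients, lay lowest at -0.46 ± 0.19 (adjusted p = 0.167) and -0.57 ± 0.26 (0.209). The ubiquitin ligase Syvn1 and its partner Sel1l differed by -0.12 ± 0.18 and -0.14 ± 0.26, and Edem1 by 0.03 ± 0.22. Herpud1, a membrane protein of the ligase complex, was the only gene of this group above 0 by more than its error, at 0.34 ± 0.19 (adjusted p = 0.311). Its levels were 7.76, 7.80 and 8.41 in K-rasG12D AOM, 8.01 and 8.08 in LSL AOM, and 8.32, 8.55 and 8.19 in serrated tumors, so all serrated tumors lay above both LSL tumors. Derl3, a relative of Derl1 that is abundant in plasma cells, differed by -0.25 ± 0.26, with levels of 3.44 to 4.76. Of 10 plasma cell and B cell markers 1, Sdc1, which epithelium also makes, fell, and their mean level was 4.17 to 4.56 in serrated and 3.93 to 5.0 in AOM tumors.

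Of the genes of protein entry and export, Sec61a1, the pore of the ER translocon, lay lowest. It stood at 9.20, 9.24 and 9.21 in K-rasG12D AOM, 9.45 and 9.16 in LSL AOM, and 8.28, 8.48 and 9.12 in serrated tumors. Sec61a1 was the only 1 of the 34 genes with all serrated tumors below all AOM tumors. That is 2.94%, against 8.93% of all genes and 14.2% of the brighter 60% of genes. The difference of -0.63 ± 0.20 did not pass (adjusted p = 0.0899 in limma), and without serrated replicate 3 it was -0.88 (adjusted p = 0.00851). Sec61a1 passed in 2 of 15 alternatives, that 1 and the array weights that did not converge. Without serrated replicate 1 it was -0.46 (adjusted p = 0.198). Ssr1, a translocon partner, differed by -0.45 ± 0.24 (adjusted p = 0.295), and Sec24d, a cargo adaptor of the vesicles that leave the ER, by 0.10 ± 0.34. Sec61b differed by -0.17 ± 0.22. Its 3 rows differed in level, from 4.12 to 6.16 on average, so it is uncertain which copy its signal reports.

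**Figure D4:**
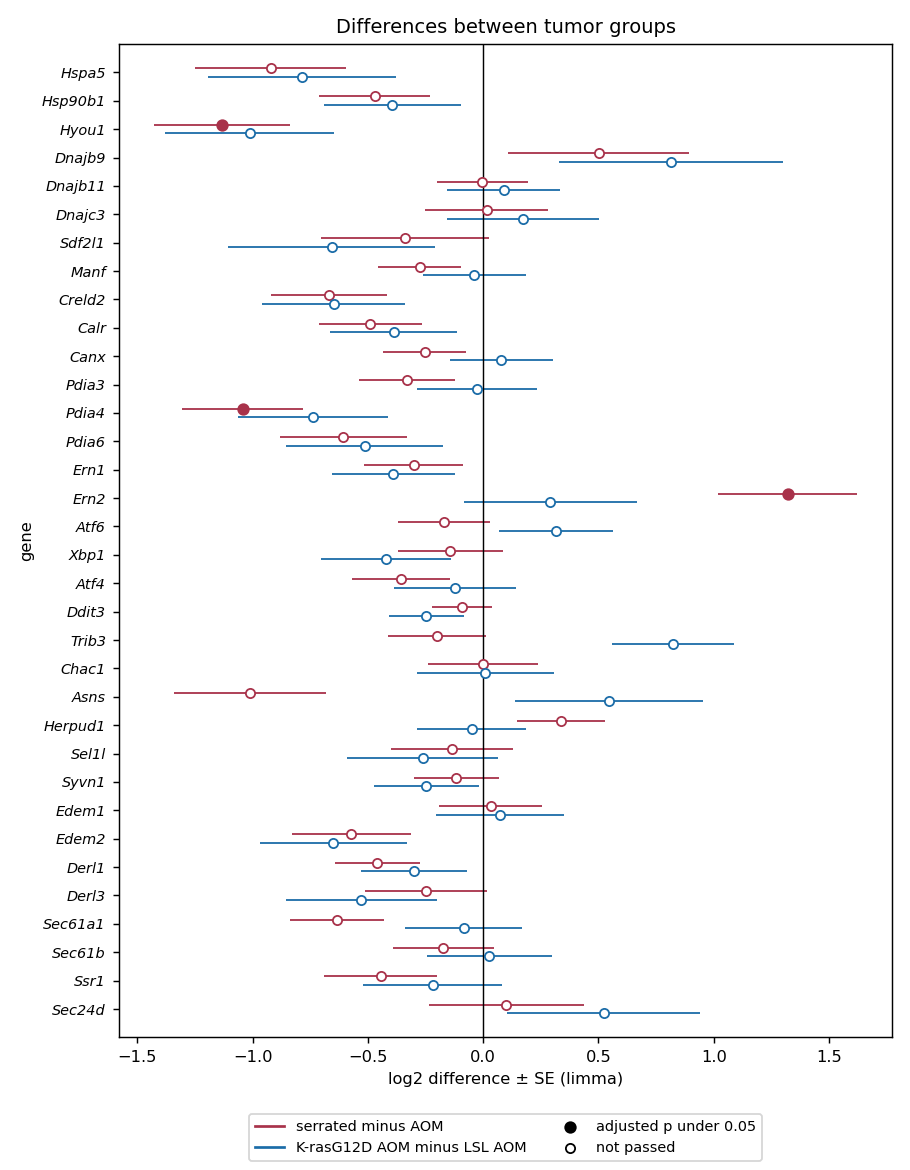
Log2 differences ± SE from limma for the 34 genes, serrated minus AOM in red and K-rasG12D AOM minus LSL AOM in blue, with filled points where the adjusted p was under 0.05. Hyou1 (-1.13), Pdia4 (-1.04) and Ern2 (1.32) are filled in red, and 0 points are filled in blue.

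The serrated arrays varied widely in these genes. The median SD of the 34 genes was 0.48 among serrated tumors, 0.18 among K-rasG12D AOM tumors and 0.17 among LSL AOM tumors, against 0.32, 0.17 and 0.16 over all genes. In 29 of the 34 genes (85.3%) serrated replicate 1 was the lowest and replicate 3 the highest of the serrated tumors, against 28.7% of all genes and 44% of the brighter 60% of genes. Serrated replicate 1 was the lowest of all 8 tumors in 27 genes (79.4%), against 26% of all genes and 41% of the brighter genes. It was the highest in 2.94%, 27.9% and 10.6% of them. This is the array with the smaller SD over genes (1.77), and with 1 array per tumor, tumor and array cannot be told apart. The median of the 34 genes, measured from the mean of the group means, was -0.68, -0.19 and 0.21 on serrated replicates 1, 2 and 3, -0.09, -0.05 and 0.16 on the K-rasG12D AOM arrays, and 0.25 and 0.10 on the LSL AOM arrays. Serrated replicate 3 thus lay with the AOM tumors.

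**Figure D5:**
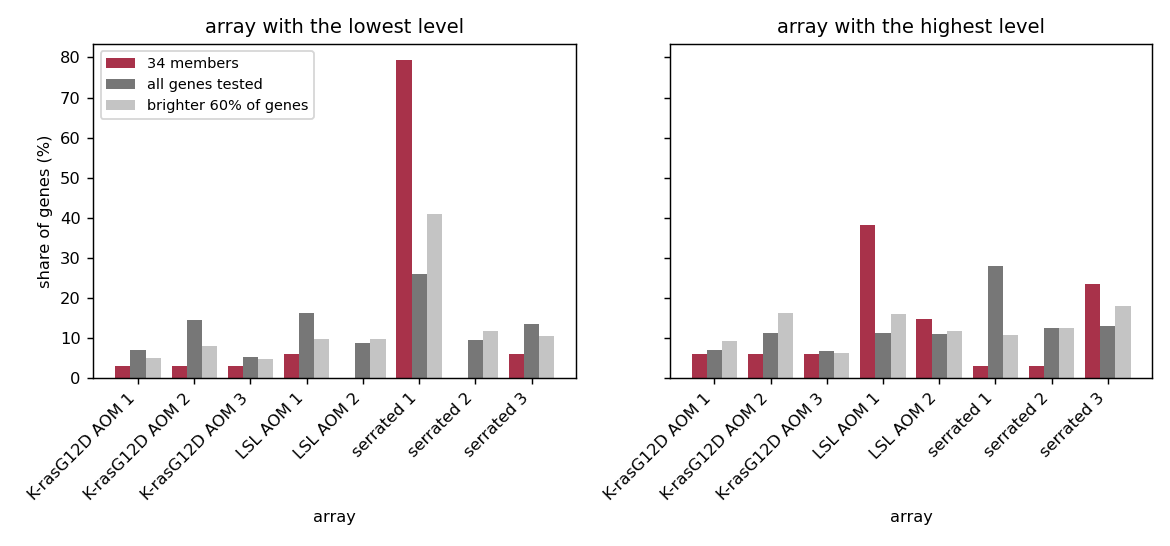
Share of genes, in percent, for which each array has the lowest (left) or highest (right) level of the 8, for the 34 genes (red), all genes tested (dark grey) and the brighter 60% of genes (light grey). Serrated 1 is lowest for 79.4% of the 34 genes and 26% of all genes, and LSL AOM 1 is highest for 38.2% and 11.1%.

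How many of the 34 genes passed depends on the tumors counted. When any 1 of the 5 AOM tumors or serrated replicate 2 was left out, 0 passed in limma. Without serrated replicate 3, 11 genes were lower and 1 higher (12 in all), while 19.4% of all genes were called. The genes that passed there in addition to Hyou1, Pdia4 and Ern2 were Hspa5, Hsp90b1, Creld2, Calr, Pdia6, Asns, Edem2, Sec61a1 and Ssr1. Without serrated replicate 1, only Ern2 and Dnajb9 passed, both higher, and 10.5% of all genes were called. Hyou1 and Pdia4 then had differences of -0.79 (adjusted p = 0.0834) and -0.75 (0.0677). Fibroblast and macrophage markers also varied: 3 of 6 and 5 of 7 fell, with mean levels of 6.43 to 7.57 and 4.93 to 5.41 in serrated tumors and 7.44 to 8.64 and 5.79 to 6.42 in AOM tumors. On serrated replicates 1, 2 and 3 the fibroblast list stood at 6.85, 6.43 and 7.57 and the macrophage list at 4.94, 4.93 and 5.41. The fibroblast list was thus lowest on replicate 2 and the macrophage list nearly level on 1 and 2. Most chaperones were lowest on replicate 1. Both lists were highest among serrated tumors on replicate 3, as most chaperones were. The 5 smooth muscle markers, of which 0 passed, ran the other way. Their mean level was 6.56, 5.51 and 5.46 on serrated replicates 1, 2 and 3, and 5.04 to 6.32 in AOM tumors. Of 6 measured markers of Paneth cells, secretory cells with a large ER, 3 fell (Lyz1, Mmp7 and Pla2g2a, named after their values were seen), with mean levels of 8.34 and 6.86 in LSL AOM, 6.31, 7.51 and 6.10 in K-rasG12D AOM and 5.23, 4.40 and 4.66 in serrated tumors. Like Hyou1 and Pdia4, the Paneth list had its highest group mean in LSL AOM and its lowest in serrated tumors, but among serrated tumors it was highest on replicate 1. The part of these cells in the differences was not tested. Among 7 epithelial markers 1, the intestinal factor Cdx2, rose (2.56 ± 0.27, named after its value was seen), and the median difference was 0.21. Epcam, Cdh1 and Krt19, which lie below that median, differed by 0.05 ± 0.16, -0.01 ± 0.15 and 0.04 ± 0.19. The other epithelial markers lay at or above it.

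The second comparison set the AOM groups against each other, which differ by K-ras genotype label. 0 of the 34 genes and 0% of all genes passed in limma, and at an unadjusted p under 0.05 there were 3 of the 34 and 8.36% of all genes. These 3 were Hyou1 (-1.01 ± 0.37, K-rasG12D minus LSL), Pdia4 (-0.74 ± 0.32) and Trib3 (0.83 ± 0.26), with adjusted p-values of 0.412 to 0.597. The levels were nevertheless ordered: in 14 genes (41.2%) both LSL tumors lay above all K-rasG12D AOM tumors, against 15.7% of all genes and 19% of the brighter genes. These were Hspa5, Hsp90b1, Hyou1, Sdf2l1, Creld2, Calr, Pdia4, Pdia6, Ern1, Xbp1, Ddit3, Syvn1, Edem2 and Derl1. Hspa5, Hsp90b1, Creld2, Calr, Pdia6 and Syvn1 of these hold an ERSE match, as do Canx, Dnajc3 and Derl3 outside this order. ERSE was found in 32.1% of the genes with a window, which Hyou1 and Derl1 lack. A link of this order to the element was not tested. The reverse order, with both LSL tumors below, was seen in Dnajb9, Ern2, Atf6, Trib3 and Asns (14.7%, against 16.4% of all genes). With 2 LSL tumors these orders are descriptions of single tumors.

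The serrated tumors were also set against each AOM group alone. The 3 contrasts share the serrated tumors, so their values are given side by side and do not support each other. Against LSL AOM tumors Hyou1 fell by 1.64 ± 0.37 (adjusted p = 0.0366 in limma) and Pdia4 by 1.41 ± 0.32 (0.0397), 2 of the 34 genes (5.88%), against 5.71% of all genes. Against K-rasG12D AOM tumors the same genes differed by -0.63 ± 0.33 (adjusted p = 0.312) and -0.68 ± 0.29 (0.218), and 0 of the 34 genes passed, against 6.45% of all genes and with 5 of the 34 at an unadjusted p under 0.05. Ern2 differed by 1.47 ± 0.37 (adjusted p = 0.0570) from LSL and by 1.17 ± 0.34 (0.0748) from K-rasG12D AOM tumors. Asns differed more from K-rasG12D AOM (-1.28 ± 0.36, adjusted p = 0.0737) than from LSL AOM tumors (-0.74 ± 0.41, 0.356). The difference between these contrasts is the comparison of the AOM groups, in which no gene passed.

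Serrated minus AOM, the 9 genes with an ERSE match ranged from -0.92 in Hspa5 to 0.02 in Dnajc3 with a median of -0.47. Of these 0 passed in limma (2 at an unadjusted p under 0.05). With the ERSE-II genes Dnajb11 and Herpud1 added, the median of the 11 genes was -0.25. The 17 genes whose window held neither ERSE nor ERSE-II ranged from -1.04 to 0.50 with a median of -0.20, and 1 of them, Pdia4, passed. The 4 genes with a CARE match ranged from -1.01 in Asns to 0.34 in Herpud1. Hyou1, Manf, Atf6, Ern2, Derl1 and Sec61a1 were not in the window table.

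The wider pathway was read from 7 lists with 139 other genes, of which 134 were measured. Serrated minus AOM, 4 of these rose and 14 fell, which is 13.4%, against 9.38% of all genes, with a median of -0.31. By direction, 2.99% rose and 10.4% fell, against 3.62% and 5.76% of all genes. Among the brighter 60% of genes, tested alone, 22 of 129 passed (17.1%, against 17.7% of all brighter genes), 12.4% fell, against 11.4%, and the median was -0.33, against -0.14. The shares called were thus near the background once dim genes were left out. The count was 22 without serrated replicate 1, 49 without serrated replicate 3 and 3 to 9 when any other array was left out, so it too depends on single tumors. Between the AOM groups 0 of the 134 passed (limma, 14 at an unadjusted p under 0.05).

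Among other stress sensors and transcription factors, 2 of 13 rose and 3 fell. The share called was 38.5%, against 9.38% of all genes and 17.7% of the brighter genes tested alone. Creb3l3, an Atf6-like factor of liver and small intestine, stood at 3.94, 3.75 and 4.11 in K-rasG12D AOM, 3.26 and 3.87 in LSL AOM, and 5.47, 6.59 and 6.12 in serrated tumors, and rose by 2.31 ± 0.26 (adjusted p = 0.00164 in limma). Creb3l1, an Atf6-like factor found in goblet cells, stood at 6.56, 6.97 and 6.89, 6.26 and 6.51, and 7.23, 7.41 and 7.67 in the same order, and rose by 0.84 ± 0.17 (0.0190). All serrated tumors lay above all AOM tumors in both genes. Of 8 colonocyte and enterocyte markers 7 rose too, with a mean level of 7.83 to 8.75 in serrated and 4.04 to 5.69 in AOM tumors, and their part in the rise of Creb3l3 was not tested. Nupr1, a stress-induced nuclear protein, fell by 1.17 ± 0.26 (0.0268). Atf6b, the relative of Atf6, and Creb3l2, both named after their values were seen, fell by 0.84 ± 0.19 (0.0280) and 0.64 ± 0.15 (0.0297). Creb3l3 passed in all 15 alternatives and Creb3l1 in 13, whereas Nupr1, Atf6b and Creb3l2 passed in 7 to 9. The PERK gene Eif2ak3 differed by -0.49 ± 0.24 (adjusted p = 0.245) and Atf3, a target of Atf4, by -0.22 ± 0.34 (0.719).

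Of 24 other chaperones, isomerases and oxidases, 2 fell and 0 rose (8.33% called, against 9.38% of all genes). Txndc5, a disulfide isomerase, fell by 0.93 ± 0.19 (adjusted p = 0.0213 in limma), and Serpinh1, the chaperone of collagen, by 0.85 ± 0.21 (0.0407), beside the fibroblast markers given above. They passed in 11 and 6 of the 15 alternatives. Agr2, the isomerase that goblet cells need for mucin, stood at 8.22, 7.95 and 8.35 in K-rasG12D AOM, 7.79 and 8.59 in LSL AOM, and 8.66, 8.64 and 9.55 in serrated tumors. All serrated tumors lay above all AOM tumors, but the difference of 0.77 ± 0.27 did not pass (adjusted p = 0.115). Of 18 other degradation genes 2 passed (11.1%, against 9.38% of all genes). H13, a signal peptide peptidase also written Hm13, fell by 1.0 ± 0.16 (adjusted p = 0.00766 in limma) and passed in all 15 alternatives. Ngly1, which strips glycans from exported proteins, rose by 0.83 ± 0.19 (0.0295) and passed in 8.

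All 17 genes of N-glycosylation and glucose trimming lay below 0, with a median of -0.61, and 3 fell. That is 17.6% called, against 9.38% of all genes and 17.7% of the brighter genes tested alone. Of those backgrounds 5.76% and 11.4% fell. The genes that fell were Dad1, Tusc3 and Ddost, subunits of the oligosaccharyltransferase. Their falls were 1.30 ± 0.29 (adjusted p = 0.0288 in limma), 0.71 ± 0.19 (0.0494) and 0.92 ± 0.24 (0.0499). Dad1 passed in 9 of 15 alternatives, and Tusc3 and Ddost in 5 each, with an adjusted p of up to 0.155 and 0.195 when 1 array was left out. Without serrated replicate 1, 16 of the 17 (94.1%) lay below 0, against 49.5% of all genes, with a median of -0.35. The mean level of the 17 genes was 6.13, 6.59 and 7.20 on serrated replicates 1, 2 and 3, against 7.13 to 7.44 in AOM tumors, so replicate 3 again lay with the AOM tumors. Of 19 genes of translocation and signal peptide removal 18 (94.7%) lay below 0 and 0 passed. Of 20 genes of transport to the Golgi 13 (65%) lay below 0 and 0 passed. Over all genes 45.2% lay below 0. At an unadjusted p under 0.05 in limma there were 5 and 6 genes, against 24.7% of all genes, and the smallest adjusted p was 0.0921 and 0.0543.

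Of 23 amino acid response genes of the Atf4 arm, 5 fell and 1 rose. That is 26.1% called, against 9.38% of all genes and 17.7% of the brighter genes tested alone. Phgdh, the entry enzyme of serine synthesis, stood at 5.57, 5.97 and 5.34 in K-rasG12D AOM, 5.71 and 5.93 in LSL AOM, and 4.73, 4.56 and 4.17 in serrated tumors, and fell by 1.24 ± 0.20 (adjusted p = 0.00729 in limma). Shmt2, which moves a carbon unit from serine in mitochondria, stood at 6.38, 6.60 and 6.25, 6.98 and 6.81, and 4.71, 5.14 and 5.89, and fell by 1.41 ± 0.25 (0.0116). In both genes all serrated tumors lay below all AOM tumors. Slc7a5, Ddit4 and Gars, an amino acid transporter, an mTORC1 inhibitor and a tRNA ligase named after their values were seen, fell by 0.63 to 0.97 on the log2 scale and passed in 8 or 9 of 15 alternatives. Vldlr, a lipoprotein receptor, rose by 1.01 ± 0.21 (adjusted p = 0.0219) and passed in 11. Phgdh passed in all 15 alternatives and Shmt2 in 13, and in both serrated replicate 3 lay below every AOM tumor, while in Asns it lay above 1 of the LSL AOM tumors.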

How the data were processed

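Transcripts of 8 mouse colonic tumors were measured on 1 array each, with RNA from a Qiagen RNeasy kit and biotin label, per the labels' protocols. The deposited values are log2 signals, and the submitters' processing notes name GCOS and RMA. The sources used here give neither versions nor settings. The deposited table holds 35557 rows with values from 0.564 to 13.5. It was used as deposited, with no further scaling or filter. Rows with exactly 1 annotated symbol (21789) gave 19938 genes.

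The 3 group means were fitted with limma 3.58.1 in R 4.3.3 (5 residual degrees of freedom, trend and robust off). The fit was tested on simulated data with the same spread in every group and no array effects. That test cannot tell how the fit behaves with the unequal spread seen here. Each gene has 1 spread shared by the groups, so where serrated tumors vary more, errors of contrasts with them may be too small. Alternatives were empirical Bayes options, array weights, leaving out the dimmest 40% of genes, quantile normalization, median centring, the mean over rows of a gene, other sets of arrays in the fit, and each array left out in turn.

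The 34 genes, the gene lists and the tests were chosen with earlier results of these data known. All of the 34 are accounted for. From each other list the 3 genes of smallest adjusted p past the threshold were named, and Creb3l1, Agr2, Eif2ak3 and Atf3 always. Of the 134 other genes 6 were matched through a synonym. Of the 11 marker lists those for goblet, stomach mucous, plasma, fibroblast, macrophage, smooth muscle, Paneth, colonocyte and enterocyte, and epithelial cells are used. Precision is limited by the number of arrays. Sequences and coordinates are from RefSeq (GRCm38.p6).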

Additional observations from a re-analysis of the deposited data

How the results depend on the processing

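Over the 4 contrasts 0 of the called genes changed sign under any alternative, and uncalled genes changed sign in 21 to 46 of 510 values per contrast. Serrated minus AOM, the 3 calls became 1 (Ern2) with median centring or with the 5 AOM arrays as 1 group, and median centring moved the share of lower calls over all genes from 61.4% to 51.1%. Array weights gave 18 calls, but that estimate did not converge, put a weight of 25.6 on serrated replicate 2 and called 51.8% of all genes. With it there were 16 calls against K-rasG12D AOM and 14 against LSL AOM tumors. Against K-rasG12D AOM tumors, where the count was 0, it was 1 without the dimmest 40% of genes (Asns) and 1 with quantile normalization (Ern2). Against LSL AOM tumors the count of 2 was 1 with the mean over rows and 0 with only the groups compared. With arrays left out in turn the counts ran from 0 to 12, 0 to 5 and 0 to 11 for serrated against all, K-rasG12D and LSL AOM tumors, and were 0 between the AOM groups. An LSL group of 1 array is assumed there to vary like the others. The medians ran from -0.44 to -0.14, -0.45 to -0.06, -0.54 to -0.21 and -0.22 to -0.11 for serrated against all, K-rasG12D and LSL AOM tumors and between the AOM groups. These moves are within the 0.298 SD of array medians inside a group, which exceeds most of the medians, so that yardstick says little about stability. The 18 other pathway genes, whose alternatives were added after seeing the data, became 81 with array weights, 11 with the AOM arrays as 1 group and 3 to 49 with arrays left out. Leaving out uncompared groups changes nothing for serrated minus AOM, which uses all arrays. No paired analysis was possible because the sample labels share no replicate number between groups.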

Other observations

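Both rows annotated to Dnajc3 held identical values on all 8 arrays (8.65, 8.50 and 8.72 in K-rasG12D AOM, 8.77 and 8.13 in LSL AOM, 7.97, 8.56 and 9.12 in serrated tumors), so they are 1 measurement. The Hspa5 window, searched for these motifs, held 1 ERSE match, and the Pdia4 window held 0 matches of any of the 4 motifs.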
